A study of Mus musculus with 2 samples.

Results

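The expression of 10 genes that mark resident macrophages was followed in the colons of mice fed psyllium or a control diet. The genes were Mrc1 and Cd163 (scavenger receptors), C1qa, C1qb and C1qc (the chains of complement C1q), and Cd68, Csf1r, Adgre1, Cx3cr1 and Cd14 (general macrophage genes). They were found as probe sets whose platform annotation names exactly 1 of these genes. Each gene had 1 such probe set, so the 10 members rest on 10 of the 41345 probe sets on the array, or 10 of 22180 named genes. No member shared a probe set that names several genes. The members were proposed with earlier results of these data in view.

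The series holds 2 arrays of total colon RNA, labelled with biotin. The psyllium array carried RNA of healthy male ICR mice, 7 weeks old, given 10% psyllium in the diet for 5 days; psyllium is the gel-forming husk of plantain seeds. The control array carried RNA of healthy male ICR mice, 7 weeks old, fed the diet without psyllium. ICR is an outbred stock, and the labels do not state how many mice contributed to an array, the segment of colon or the wall layers taken. With 1 array per diet there are no replicates, so no error, interval or test can be given for any difference between the diets, and every value describes these arrays.

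Macrophages of the gut wall take up bacteria, dying cells and debris. Those of the mucosa are largely replaced from blood monocytes, whereas longer-lived ones lie near vessels, nerves and muscle. All depend on signals through the receptor encoded by Csf1r. The mannose receptor Mrc1 internalises mannose-bearing glycoproteins, Cd163 takes up haemoglobin, and C1q starts the classical complement pathway and tags dying cells for uptake.

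Promoter sequences from RefSeq (GRCm38.p6) were matched by symbol for 6 of the 10 genes. The 4 below belong to the scavenger receptors and to a pair of C1q genes, whose differences are compared in what follows. Each runs 5′ to 3′ on the gene's strand, from 250 bases before to 50 bases after the annotated start. Capitals mark the core GAGGAA, on either strand, of the motif of PU.1, a transcription factor needed for macrophage development.
Mrc1, chr2:14229164-14229463, plus strand: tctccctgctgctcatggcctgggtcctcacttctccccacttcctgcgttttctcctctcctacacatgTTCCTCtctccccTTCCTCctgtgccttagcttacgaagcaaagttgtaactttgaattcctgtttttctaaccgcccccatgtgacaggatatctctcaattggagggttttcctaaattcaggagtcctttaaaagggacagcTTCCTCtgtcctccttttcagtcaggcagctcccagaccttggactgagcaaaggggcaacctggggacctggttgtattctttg
Cd163, chr6:124304401-124304700, plus strand: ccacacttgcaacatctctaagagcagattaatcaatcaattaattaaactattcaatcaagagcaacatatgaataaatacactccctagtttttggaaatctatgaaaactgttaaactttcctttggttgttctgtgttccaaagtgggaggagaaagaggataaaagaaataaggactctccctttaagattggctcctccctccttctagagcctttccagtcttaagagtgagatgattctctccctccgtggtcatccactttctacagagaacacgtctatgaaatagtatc
C1qb, chr4:136886151-136886450, minus strand: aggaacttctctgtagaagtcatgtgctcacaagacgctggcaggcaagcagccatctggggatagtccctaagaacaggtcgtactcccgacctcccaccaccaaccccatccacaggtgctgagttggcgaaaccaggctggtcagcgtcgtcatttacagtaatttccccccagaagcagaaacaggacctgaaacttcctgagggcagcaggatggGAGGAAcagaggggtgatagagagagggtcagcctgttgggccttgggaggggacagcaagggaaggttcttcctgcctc
C1qc, chr4:136892865-136893164, minus strand: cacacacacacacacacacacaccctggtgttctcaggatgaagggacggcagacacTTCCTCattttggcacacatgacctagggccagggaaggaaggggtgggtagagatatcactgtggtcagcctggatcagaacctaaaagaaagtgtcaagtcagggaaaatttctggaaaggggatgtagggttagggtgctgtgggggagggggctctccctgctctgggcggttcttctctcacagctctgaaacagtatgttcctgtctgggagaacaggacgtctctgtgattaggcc

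The core occurred 3 times in the Mrc1 window, once each in the C1qb and C1qc windows and not in that of Cd163. Among the 6 windows, 4 held it, Cd68 being the other one and Cx3cr1 being without it. Of 32851 windows of the same length in the table, 28.3% held it. The motifs TTGCNNAA (bound by C/EBP factors), TGCTGAC (bound by MAF factors) and TATAAA, the letters of the TATA box, were searched on both strands as well. Of these, the C/EBP motif occurred once, in the Cd68 window, without overlapping a core, and the others in none of the 6. Over all windows the C/EBP motif was held by 10.8%, the MAF motif by 4.67% and the TATA box by 13.6%. A match only describes the letters in a window.

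Mrc1 and Cd163 were the members with the largest differences, and those of the general macrophage genes ran from -0.45 to 0.47 on the log2 scale. The probe set of Mrc1 had a normalised intensity of 272 on the psyllium array and 117 on the control array. This is 2.33-fold higher on the psyllium array, a log2 difference (log2 psyllium minus log2 control) of 1.22. A gene was counted as past the intensity filter when its brighter array reached 69.5, the median of the brighter values over all genes. Of the 11090 genes past it, 0.667% had a difference at least as large as that of Mrc1.

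Cd163 had an intensity of 93.3 on the psyllium array and 54.5 on the control array. It was 1.71-fold higher on the psyllium array, a log2 difference of 0.78, and 2.11% of genes past the filter differed by as much or more upwards. Its control value lay below the filter, so the size of this fold is uncertain. The scavenger receptors thus had the same direction, with a gap of 0.44 between their log2 differences.

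The 3 C1q genes were all moderately higher on the psyllium array. C1qa had intensities of 148 on the psyllium array and 118 on the control array, a log2 difference of 0.33. C1qb had 234 on the psyllium array and 172 on the control array, a difference of 0.45. C1qc had 90.7 on the psyllium array and 68.7 on the control array, a difference of 0.40, its control value lying just below the filter. The folds were 1.26, 1.36 and 1.32, none reaching 1.5. In the RefSeq table these are 3 consecutive protein-coding genes on chromosome 4, and their products assemble into a single recognition molecule. The 3 log2 differences lay within 0.12 of each other.

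**Figure D1:**
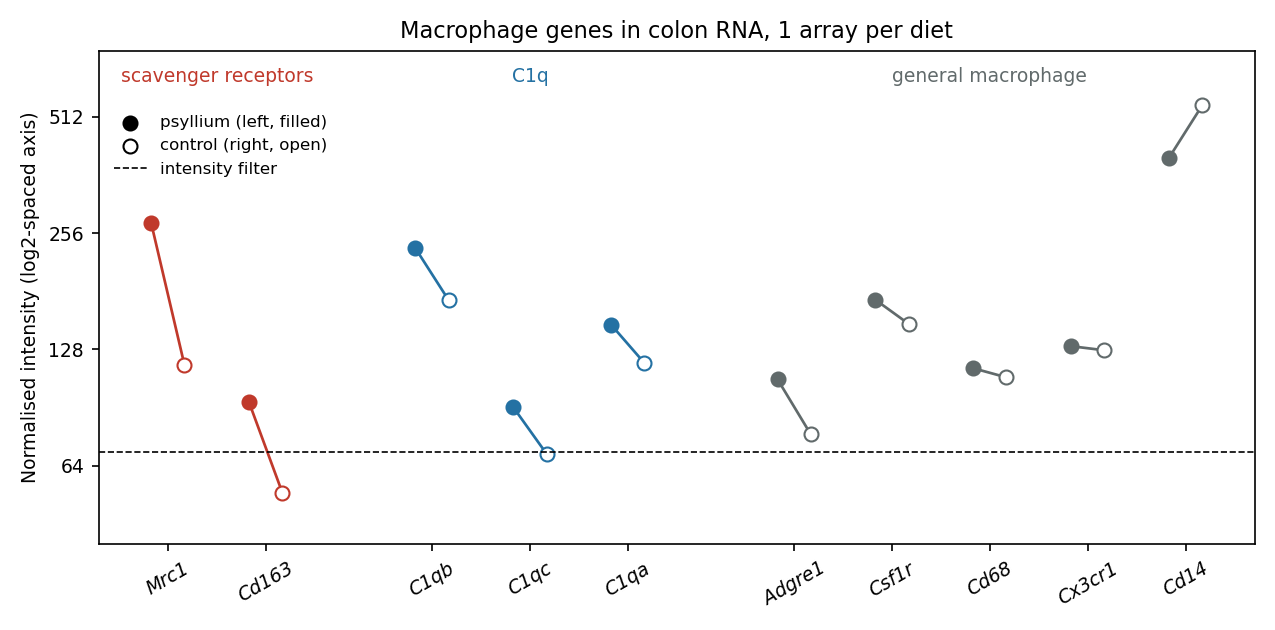
Normalised intensity (vertical axis, log2-spaced) of the 10 macrophage genes, with the psyllium array as filled points on the left and the control array as open points on the right of each gene; there are no replicates and no error bars. The lines of Mrc1 (272 and 117) and Cd163 (93.3 and 54.5) are the steepest, the C1q lines slope alike, and Cd14 alone is lower on the psyllium array (401 and 549).

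Among the general macrophage genes the values ran from lower to moderately higher. Adgre1, which encodes the F4/80 antigen, had intensities of 107 on the psyllium array and 77.1 on the control array, a log2 difference of 0.47 (1.39-fold). Csf1r, the receptor of the growth factors CSF1 and IL-34, had 172 on the psyllium array and 149 on the control array, a difference of 0.21. Adgre1 was thus as far from 0 as the C1q genes, and Csf1r less so.

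Cd68, a glycoprotein of late endosomes and lysosomes, had 114 on the psyllium array and 108 on the control array, a log2 difference of 0.08. Cx3cr1, the receptor of the chemokine fractalkine, had 130 on the psyllium array and 127 on the control array, a difference of 0.04. Cd14, the co-receptor for bacterial lipopolysaccharide, was the member with a negative difference. It had 401 on the psyllium array and 549 on the control array, a log2 difference of -0.45 (1.37-fold lower on the psyllium array), and 5.22% of genes past the filter were lower by as much or more.

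Counted together, 9 of 10 members had differences above 0 and 1 was below it, where 42.7% of the genes past the filter were above 0 and 56.6% below. At 1.5-fold or more, 2 of 10 members were higher, against 4.03% of genes past the filter, and 0 of 10 were lower, against 2.42%. All 10 members were past the filter on their brighter array, and 8 were past it on both arrays. The median of the 10 log2 differences was 0.37, beside -0.04 over all genes past the filter. The member closest above the 1.5-fold mark was Cd163 (0.78) and the one closest below it was Adgre1 (0.47).

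The median log2 difference of the scavenger receptors was 1.0, that of the C1q genes 0.40 and that of the general macrophage genes 0.08. The scavenger receptors therefore stood 0.92 above the general macrophage genes and 0.60 above the C1q genes on the log2 scale. With Mrc1 alone in their place the contrasts were 1.14 and 0.82. Cd163 alone, at 0.78 and so below the 1.0 of the pair, would give smaller contrasts. Groups of genes on the same arrays are not replicates, so these contrasts carry no test.

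How far a single probe set can be trusted was gauged on genes with 2 probe sets past the filter. Over 286 such genes the median absolute gap between the log2 differences of the 2 probe sets was 0.19. The step from Adgre1, the highest of the other 8 members, up to Cd163 was 0.30, and 28.3% of these pairs had a gap at least that large. The spread of 0.12 between C1qa and C1qb was matched or exceeded by the gap in 68.9% of pairs. The order of Cd163 and Adgre1, and that of the C1q chains among themselves, is therefore not resolved on this scale. This measures disagreement of probes on the same RNA and says nothing of differences between animals.

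**Figure D2:**
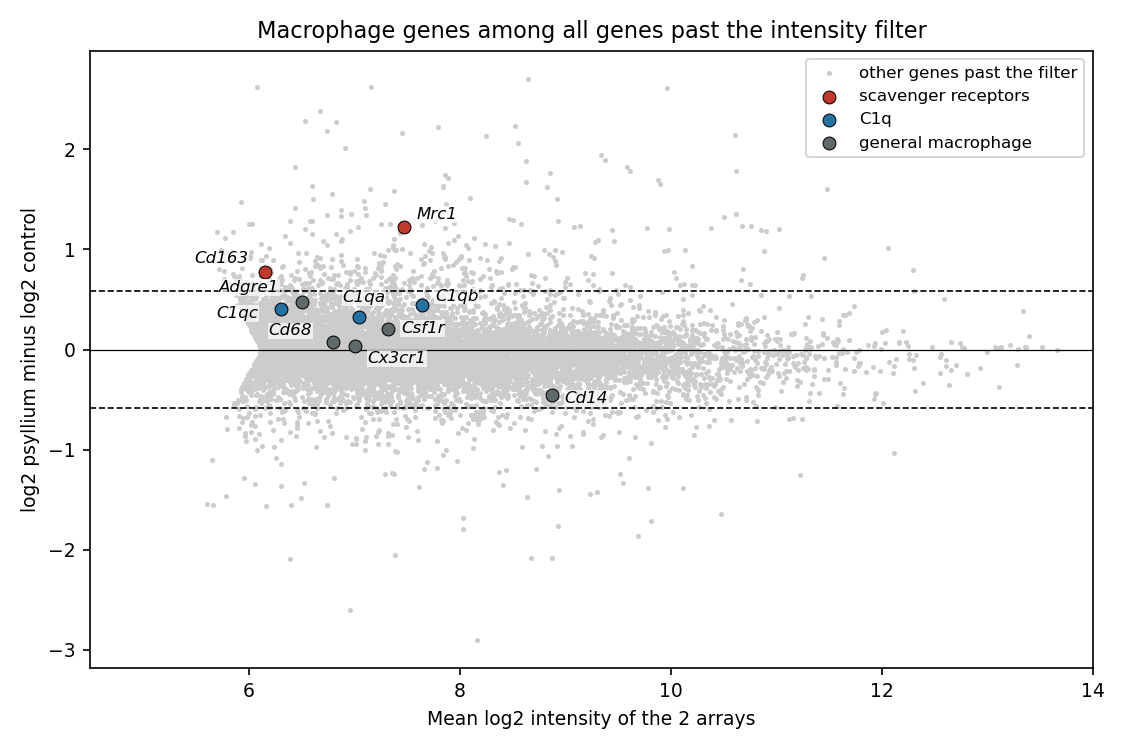
The log2 difference (psyllium minus control, vertical axis) against the mean log2 intensity of the 2 arrays (horizontal axis) for 11090 genes past the filter in grey, with the 10 macrophage genes coloured by group; dashed lines mark 1.5-fold. Mrc1 at 1.22 and Cd163 at 0.78 lie above the upper line, 8 members lie between the lines, and Cd14 lies at -0.45.

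Other genes known from resident macrophages were mostly higher on the psyllium array, and a minority were lower. Of 22 listed genes, 20 were measured and 12 were past the filter. Of the 20, 15 had positive and 5 negative differences, where 47.2% of all 22180 genes were above 0 and 50.2% below. At 1.5-fold 10 of the 20 were higher and none lower, where 3.42% of all genes were higher and 2.80% lower. The median difference of the 20 was 0.52, beside -0.0025 over all genes, and 0.32 with a pseudocount of 16. Of the 10 higher genes 5 were past the filter, and the median of the 12 genes past it was 0.39.

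The largest difference in that list was that of F13a1, the A subunit of coagulation factor XIII, which had intensities of 201 on the psyllium array and 86.0 on the control array, a log2 difference of 1.22. The growth factor Igf1 had 170 on the psyllium array and 76.3 on the control array (1.15). Lyve1, a hyaluronan receptor of lymphatic endothelium and of macrophages near vessels, had 513 on the psyllium array and 245 on the control array (1.06). These genes differed by about as much as Mrc1.

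Folr2, folate receptor beta, had 140 on the psyllium array and 74.4 on the control array, a log2 difference of 0.91. Stab1, a scavenger receptor, differed by 0.65. The apoptotic-cell receptor Timd4 (0.69) and the sialic acid receptor Siglec1 (0.67) also had positive differences but lay below the filter on both arrays. On the other side were Maf, a transcription factor of macrophages and other cells, at -0.47 (139 on the psyllium array and 191 on the control array), and Mertk, a receptor kinase for dying cells, at -0.41 (406 on the psyllium array and 540 on the control array). Stab1, Timd4, Siglec1, Maf and Mertk were chosen for naming after their values were seen. Igf1, Lyve1, Maf and Mertk are also made by cells other than macrophages.

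A list of other scavenger receptors, which leaves out Stab1 (0.65, given above with the resident macrophage genes), had mostly small differences. Of its 17 measured receptors, 7 of them past the filter, the median difference was 0.12. At 1.5-fold 1 was higher and none lower, where 3.42% of all genes were higher and 2.80% lower. That receptor was Colec12, a collectin that binds sugars and oxidised lipoprotein, with 360 on the psyllium array and 168 on the control array (1.10). The macrophage scavenger receptors Msr1 (0.12) and Marco (0.19) lay below the filter on both arrays, and the fatty acid and lipoprotein receptor Cd36 differed by 0.23. These 3 were named after their values were seen.

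Genes that handle haemoglobin and iron had no common direction. Of 10 measured, 7 were above 0 and 3 below, where 47.2% of all genes were above 0 and 50.2% below. At 1.5-fold 1 was higher and none lower, where 3.42% of all genes were higher and 2.80% lower. The median of the 10 was 0.18, or 0.086 on the 7 genes past the filter and -0.07 on genes past it on both arrays. The one past 1.5-fold was Hp, haptoglobin, which binds free haemoglobin. Hp had 88.9 on the psyllium array and 46.7 on the control array (0.93), its control value lying below the filter. Hmox1, which breaks down haem, differed by 0.19 and was below the filter on both arrays. The iron exporter Slc40a1 had 1156 on the psyllium array and 1634 on the control array, a difference of -0.50. Hmox1 and Slc40a1 were named after their values were seen.

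Complement genes other than C1q were mixed. Of 22 measured, 8 of them past the filter, 13 were above 0 and 8 below. Over all genes 47.2% were above 0 and 50.2% below. The median of the 22 was 0.11, or 0.36 on those past the filter and 0.49 on those past it on both arrays. That of the C1q genes was 0.40. At 1.5-fold 2 of the 22 were higher and 1 lower, where 3.42% of all genes were higher and 2.80% lower. Cd59a, a membrane inhibitor of the terminal complex, had 709 on the psyllium array and 222 on the control array (1.68), and Serping1, the C1 inhibitor, had 468 on the psyllium array and 310 on the control array (0.59). C9, a terminal component, differed by -0.60 but was dim on both arrays (24.3 on the psyllium array and 36.9 on the control array). The proteases that form the C1 complex with C1q, C1ra (-0.14) and C1s1 (0.03), were also below the filter. C9, C1ra and C1s1 were named after their values were seen.

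Cd14 and the genes that act with it at the lipopolysaccharide receptor were mostly lower on the psyllium array. Of 11 measured partners, 9 of them past the filter, 9 had negative and 2 positive differences, with a median of -0.15. Below 0 were 50.2% of all genes and 56.6% of genes past the filter. At 1.5-fold 2 of the 11 were lower and none higher, where 2.80% of all genes were lower. Of these 2 partners, 1 was past the filter. Tlr2, the one past it, a receptor for bacterial lipopeptides that also uses CD14, had 127 on the psyllium array and 213 on the control array (-0.74). Cd180, a relative of the Toll-like receptors, differed by -0.96 but was dim, with 15.1 on the psyllium array and 29.3 on the control array. Of the core receptor, Ly96 (MD-2) differed by -0.38 and Tlr4 by -0.12, whereas the binding protein Lbp differed by 0.41. Cd180, Ly96, Tlr4 and Lbp were named after their values were seen. Cd14, Tlr2 and Ly96 are not confined to macrophages, and 10 of 10 epithelial markers were also below 0, with a median of -0.28. The part of that in the values of these genes was not tested.

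Growth factors, chemokines and transcription factors of the lineage had a median near 0, with differences in both directions. Of 15 measured, 8 were above 0 and 7 below, where 47.2% of all genes were above 0 and 50.2% below. At 1.5-fold 1 was higher and none lower, where 3.42% of all genes were higher and 2.80% lower. The median of the 15 was 0.05, or -0.08 on those past the filter. The chemokine Ccl7 had 72.6 on the psyllium array and 46.4 on the control array (0.65), its control value lying below the filter. Csf1, a ligand of Csf1r, had 104 on the psyllium array and 71.1 on the control array (0.55), and Il34, its other ligand, differed by 0.17. Cx3cl1, the ligand of Cx3cr1, differed by -0.28. The transcription factors, all past the filter, were all below 0, where 56.6% of genes past it were. Spi1, which encodes PU.1, was at -0.11. The others were Irf8 (-0.30), Cebpa (-0.27), Runx1 (-0.25) and Nr4a1 (-0.05). All genes of this paragraph except Ccl7 were named after their values were seen.

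Activation genes were largely dim. Of 10 inflammatory genes 2 were past the filter, and the median was -0.23 (-0.55 on the genes past the filter). Below 0 were 8 of the 10, where 50.2% of all genes were. At 1.5-fold 1 was lower and none higher, where 2.80% of all genes were lower and 3.42% higher. The interferon-induced chemokine Cxcl9 had 82.0 on the psyllium array and 123 on the control array (-0.59). Of 10 alternative-activation genes 2 were past the filter, 3 of the 10 were 1.5-fold higher and none lower, where 3.42% of all genes were higher and 2.80% lower. Of these 3, 1 was past the filter. The median of the 10 was 0.18, and it was 0.26 with the filter on the dimmer array, which leaves Il4ra alone. Retnla, a secreted protein of alternatively activated macrophages in mice, had 69.9 on the psyllium array and 39.9 on the control array (0.81), so its psyllium value lay at the edge of the filter. The lectin Mgl2 (0.84) and the chitinase-like Chil3 (1.39), named after their values were seen, lay below the filter on both arrays.

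**Figure D3:**
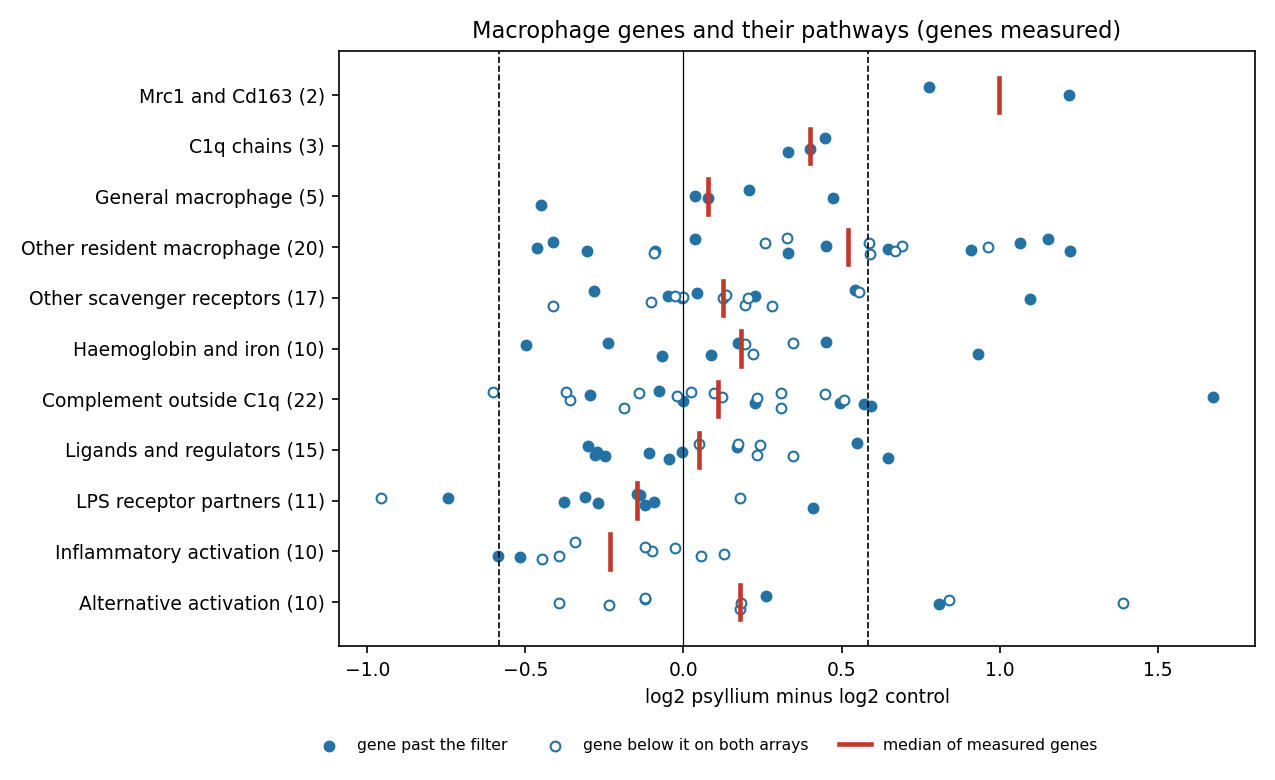
The log2 difference (psyllium minus control, horizontal axis) of each measured gene in the 3 groups of members and 8 related lists, with the number measured in brackets; filled points are past the filter, open points are below it on both arrays, red bars are medians and dashed lines mark 1.5-fold. The bars run from 1.0 for Mrc1 and Cd163 and 0.52 for other resident macrophage genes to -0.15 for the LPS (lipopolysaccharide) receptor partners and -0.23 for inflammatory genes.

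Markers of other cell types differed between the same RNA samples, several by more than the macrophage genes. Smooth muscle markers had summed intensities of 28675 on the psyllium array and 11698 on the control array, with 10 of 10 at least 1.5-fold higher and a median of 1.63. Fibroblast markers summed to 9738 on the psyllium array and 4089 on the control array, with 7 of 10 at least 1.5-fold higher and a median of 1.20. Over all genes 3.42% were at least 1.5-fold higher, and 4.03% of those past the filter. Epithelial markers summed to 23373 on the psyllium array and 28357 on the control array, with 0 of 10 past 1.5-fold in either direction. All 10 were past the filter, so markers of the labelled tissue were present.

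In these lists the examples taken by rule were Actg2, smooth muscle actin (3293 on the psyllium array and 745 on the control array), and Lum, the matrix proteoglycan lumican (639 on the psyllium array and 145 on the control array). Car1, carbonic anhydrase 1 of colonocytes, had 7791 on the psyllium array and 10100 on the control array. In bulk RNA a greater share of a cell type and more RNA per cell cannot be told apart. The part of the muscle and fibroblast signal in the values of Mrc1, Cd163 and C1q was not tested.

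Lymphatic endothelium, which also expresses Mrc1 and Lyve1, had summed intensities of 1350 on the psyllium array and 895 on the control array. The median of its 7 markers was 0.24. Over all genes 3.42% were at least 1.5-fold higher, and of these 7 markers 2 were. These were Lyve1 and the matrix protein Mmrn1 (360 on the psyllium array and 211 on the control array, 0.77). Its defining transcription factor Prox1 differed by -0.06 (98.9 on the psyllium array and 103 on the control array) and the receptor Flt4 by 0.24, both named after their values were seen. For blood endothelial markers the median was 0.00, and 0 of 9 were past 1.5-fold.

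Markers shared by leukocytes showed no common direction. Of 11, 6 were above 0 and 5 below, with a median of 0.05, and their sums were 3211 on the psyllium array and 3487 on the control array. Over all genes 47.2% were above 0 and 50.2% below. The protease Ctss differed by -0.20 and the actin-bundling Lcp1 by 0.10. The 11 dendritic cell markers, 5 of them past the filter, had 0 past 1.5-fold and a median of -0.09. The lectin Cd209a was at -0.13 and the receptor Sirpa at 0.46.

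Monocyte markers had a median of 0.43 with 3 of 9 at least 1.5-fold higher, where 3.42% of all genes were. Of these 3, 2 were past the filter. The exception was Chil3, also counted with the alternative-activation genes above. The largest, Fn1 (2.61) and Vcan (2.18), are also matrix genes of fibroblasts. The control value of Vcan lay below the filter. The defining monocyte genes Ly6c2 (0.30) and Ccr2 (0.35), named after their values were seen, lay below the filter on both arrays. Of 10 neutrophil markers 1, Ly6g, was past the filter and 1.5-fold higher (0.60), and the list had a median of -0.06. Ly6g has close relatives, and probes that also bind those would make its value uncertain.

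T cell markers were the lymphoid list farthest from 0, with 6 of 8 at least 1.5-fold lower and a median of -0.80. Over all genes 2.80% were lower by as much. Past the filter were 4 of the 8, and all 4 were at least 1.5-fold lower. Cd3e, a chain of the T cell receptor complex, had 72.0 on the psyllium array and 175 on the control array. Of 6 B cell markers, 2 of them past the filter, 1 was lower by as much, with a median of -0.14. Of 8 mast cell markers 2 were lower by as much. The mast cell list had 2 genes past the filter and no settled direction, with a median of -0.32 over all 8, of -0.17 on those 2 and of 0.38 with the filter on the dimmer array. Of 6 peritoneal macrophage markers 0 were past 1.5-fold and the median was -0.03, but only 1, Gata6, was past the filter. Gata6, which is also an intestinal epithelial factor, differed by -0.08. Genes of the enteric nerves and of the BMP exchange between nerves and muscularis macrophages had 0 of 6 past 1.5-fold and a median of -0.11. Of the 6, 3 were past the filter. Among them Bmp2, which muscularis macrophages release, differed by -0.44 and its receptor gene Bmpr2 by 0.30.

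**Figure D4:**
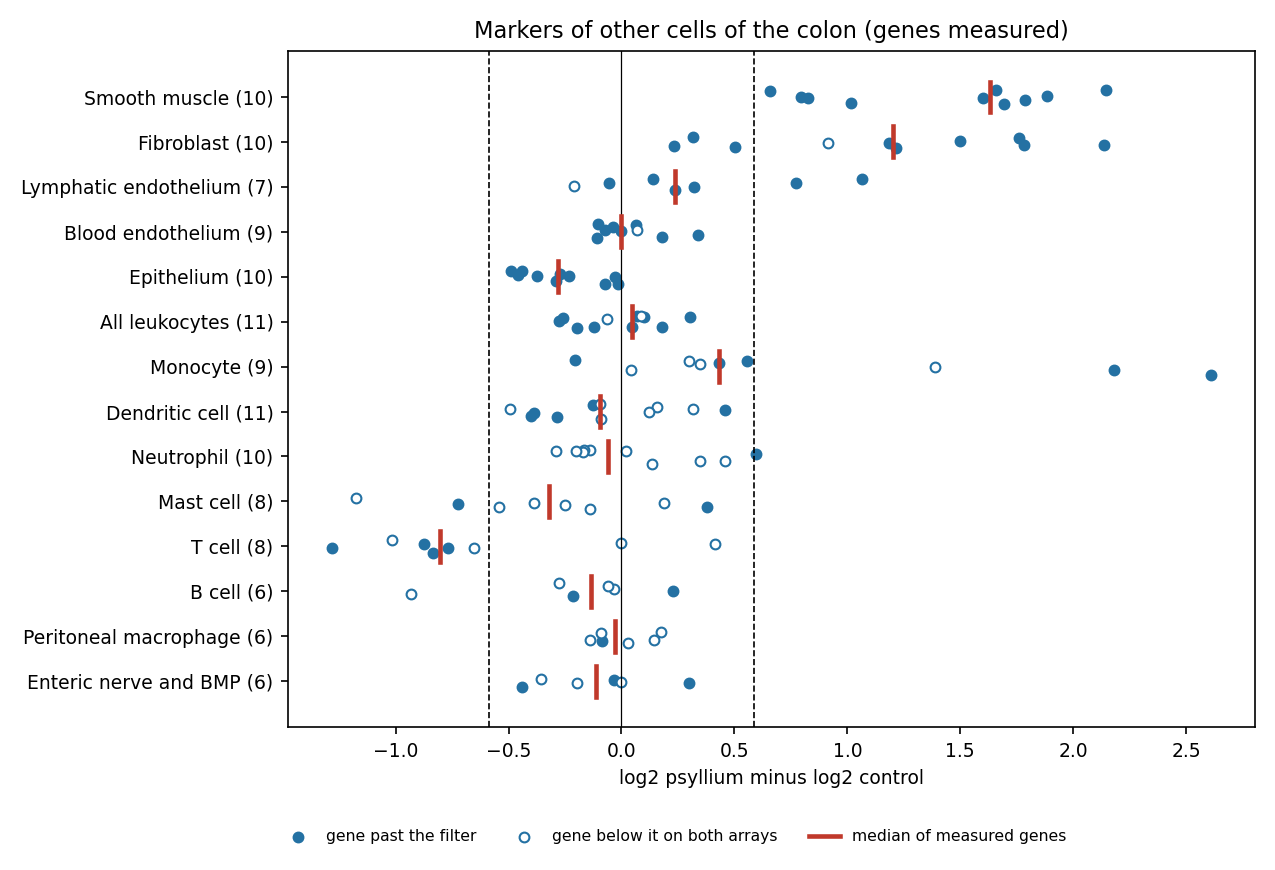
The log2 difference (psyllium minus control, horizontal axis) of each measured marker of 14 other cell lists, with the number measured in brackets; filled points are past the filter, open points below it on both arrays, red bars are medians and dashed lines mark 1.5-fold. Smooth muscle (1.63) and fibroblast (1.20) medians lie above 1.5-fold, the T cell median (-0.80) lies below it, and leukocyte (0.05) and blood endothelial (0.00) medians lie near 0.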

How the data were processed

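Total RNA of mouse colon was hybridised to 2 arrays, 1 per diet. The values the authors deposited are linear, normalised intensities, 1 per probe set. The submitters' processing notes name RMA and Affymetrix Expression Console and give no version. Not given in the sources used here are the annotation, the build and whether the values are antilogarithms of RMA output, so no gene coordinates are printed and the promoter windows carry RefSeq's own. The deposited intensities ran from 1.76 to 13841 on the psyllium array (median 49.8) and from 1.92 to 13675 on the control array (median 48.9). The number of arrays limits the precision.

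Intensities were converted to log2 with no pseudocount. Of the probe sets, 23521 named 1 gene, and 1814 that named several stayed out. Symbols came from RefSeq (GRCm38.p6) by gene number for 23328 of them. Of several probe sets of a gene the one with the highest mean was used, and every member had 1. The counting of genes past 1.5-fold was tested on simulated data. Members and lists were chosen with earlier results of these data known. Named genes are the 10 members and, from each of 22 other lists, up to 4 of those that passed the filter and differed most, if by 1.5-fold or more, and failing that up to 2 of the highest level, of which some are given as list counts only. No genes of like pattern are named, since a pattern over 2 arrays is 1 difference. Python 3.11.15, pandas 2.3.3 and statsmodels 0.14.6 were used.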

Additional observations from a re-analysis of the deposited data

How the results depend on the processing

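Alternatives were the mean of probe sets, a pseudocount of 16, further quantile normalisation, centring on the median, removal of an intensity trend by lowess, and other intensity filters. A value was taken to have moved when it differed by at least 0.19, the median gap between probe sets of a gene, since no replicate spread exists. Under the 5 alternatives that apply to single genes, none of the 50 member values moved and none had another sign. The mean of probe sets repeats the member values, since each member has 1. Centring takes the same median of -0.04 from every gene, so it could move no member value by 0.19 and no contrast at all. The contrast between scavenger receptors and general macrophage genes ran from 0.81 to 1.14, and that against C1q from 0.54 to 0.82. The highest of each, 1.14 and 0.82, came with Mrc1 alone, a choice made after seeing the data, as were group means (0.93 and 0.61) and the contrast without Cd14 (0.86). Cd163 alone (0.78) was not among the alternatives, and contrasts with it would lie below both ranges. Members at least 1.5-fold higher numbered 1 with the filter on the dimmer array, which removes Cd163, against 2 otherwise. All genes at least 1.5-fold higher numbered 759 without the filter, against 447 with it. Of 175 list medians 13 moved, 12 of them under a filter, which leaves fewer genes, and 1 under the pseudocount (other resident macrophage genes, 0.32). The filters also gave the other sign to the medians of the ligand (-0.18), haemoglobin (-0.07), dendritic (0.17), leukocyte (-0.04), neutrophil (0.60), B cell (0.0063) and mast cell (0.38) lists, and centring to that of the peritoneal macrophage list (0.011). No paired analysis was possible because each diet has 1 array and the labels carry no replicate numbers.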

Other observations

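Families related to the members by name were looked at after the lists had been seen, so they are described only. The products of the C1q and TNF related family and of the C1q-like family share the globular domain of C1q. Of their 11 measured genes, 3 of them past the filter, 7 were above 0 and 4 below. Over all genes 47.2% were above 0 and 50.2% below. At 1.5-fold 1 of the 11 was higher, where 3.42% of all genes were. That gene was C1qtnf3, a secreted protein, with 370 on the psyllium array and 82.7 on the control array (2.16). Next was C1qtnf6 (0.58), its control value lying below the filter. Among 4 Fc gamma receptors, which bind antibody on macrophages and other leukocytes, the inhibitory Fcgr2b had 207 on the psyllium array and 130 on the control array (0.67). Fcgr3 differed by 0.45, beside 0.40 for the median of the C1q genes. Its psyllium value (69.6) lay at the edge of the filter and its control value (51.0) below it. Fcgr1 (0.26) and Fcgr4 (-0.06) lay below the filter on both arrays.

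Of 6 CD209 lectins 5 were above 0, where 47.2% of all genes were, but 1 of the 6, Cd209a (-0.13), was past the filter. The one past 1.5-fold, Cd209g, differed by 0.96 with dim values of 48.8 on the psyllium array and 25.1 on the control array. Of 20 Ms4a genes, a cluster of membrane proteins with members in macrophages, B cells and mast cells, 1 was at least 1.5-fold higher and 3 were lower, where 3.42% of all genes were higher and 2.80% lower. Past the filter, on 4 of the 20, these counts were 0 and 1. The higher one was Ms4a6d, at 57.2 on the psyllium array and 29.5 on the control array (0.96), below the filter on both. The lower ones were Ms4a18 (-0.90), which was past the filter, and Ms4a4b (-0.95) and Ms4a1 (-0.93), a B cell gene, which were not.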
